A study of Homo sapiens with 4 samples.

Results

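Broad methylated regions were autosomal 5-methylcytosine peaks chosen by their length, at least 2000 bp, in the peak list of knockout cells or in that of control cells. Of 290447 autosomal peaks in the knockout list 4514 were broad (1.55%), and of 256848 in the control list 3101 were broad (1.21%), which gives 7615 broad peaks among 547295. The cells were C42B (C4-2B), a human prostate cancer cell line of the LNCaP lineage that grows without androgen. The knockout cells (KO, labelled sgPKCl/i) lacked PKCλ/ι, a kinase of the atypical PKC class whose gene is PRKCI, and the wild-type cells (WT) carried sgC, the control guide. Cells of both genotypes were left untreated and were harvested 48 h after plating, near 70% confluency. Methylated DNA was immunoprecipitated with an antibody against 5-methylcytosine and sequenced (MeDIP-seq), with an input library beside it. Each genotype had 1 immunoprecipitated and 1 input library, so no difference below has a replicate check and no p-value is given. Whether the knockout was 1 clone or a pool was not given in the sources used here.

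DNA methylation in human cells lies mainly on cytosines followed by guanine (CpG). Most CpGs are methylated, except at CpG islands, the CpG-rich starts of many genes, and the bodies of transcribed genes are commonly methylated. Cancer cells often lose methylation over long CpG-poor domains and gain it at some islands. MeDIP enriches fragments that hold several methylated CpGs, so an unbroken peak of several kilobases needs methylated CpGs that follow each other closely along the DNA. The methyl group comes from S-adenosylmethionine, which one-carbon metabolism helps to supply, and the series set PKCλ/ι loss beside serine and one-carbon metabolism.

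The members were selected on length, so lengths and everything that moves with length within a list are given as description. Peaks were called separately in each library. The knockout immunoprecipitate was deeper, by 1.51 times as judged from the lowest local background of each list, which was 4.42 overlapping fragments in KO and 2.92 in WT. This lowest background, the genome-wide mean pileup in the caller's model, is called the floor below. Longer peaks in the deeper library and broader methylation cannot be told apart with these files. The smallest distance between neighbouring peaks was 76 bp in both lists, so a break in a region is a stretch of at least that length which did not pass the caller. Intervals are at the 95% level. Those of counts, pileups, shares and ratios of counts cover counting error only. That of a median over pairs takes the peaks as independent and covers the spread between them. None covers variation between libraries.

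Knockout cells had more broad methylated regions than control cells, and more DNA in them. The ratio of the counts was 1.46 (1.39 to 1.52), against a ratio of 1.13 for all autosomal peaks. Broad peaks covered 13.0 Mb in KO, or 7.47% of the peak-covered length, and 8.72 Mb in WT, or 5.88%. Typical lengths were alike, with a median of 2501 bp in KO (quartiles 2193 and 3100) and 2490 bp in WT (2191 and 3056). The lists parted in the far tail: 203 peaks reached 5000 bp in KO and 121 in WT, and 17 reached 10000 bp in KO against 2 in WT. The longest was 17122 bp in KO and 11264 bp in WT.

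**Figure D1:**
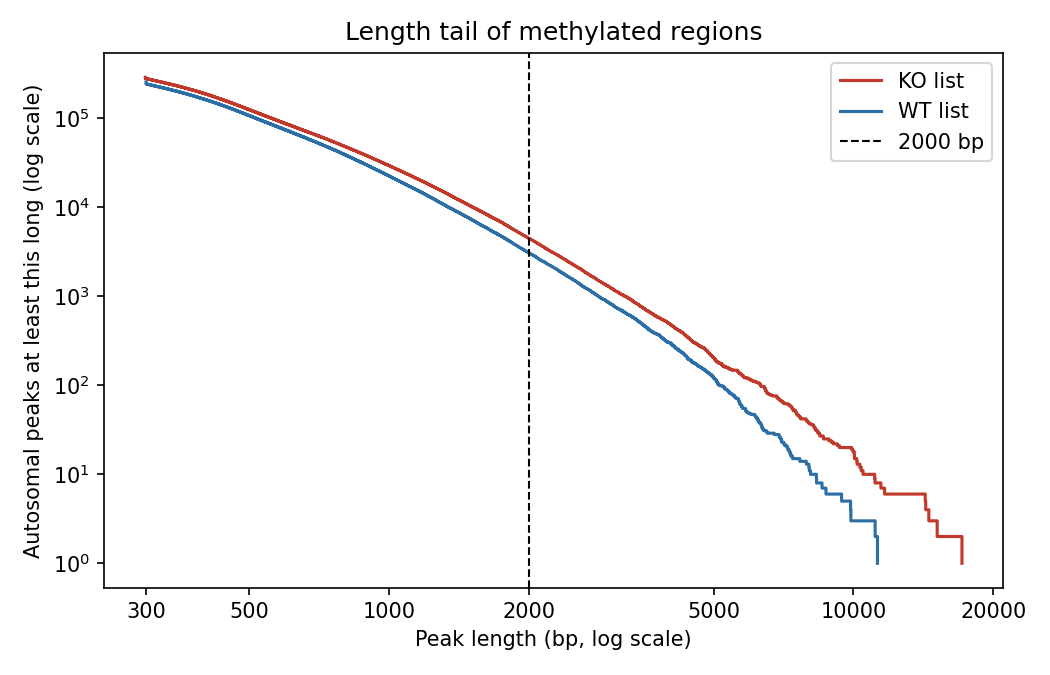
Number of autosomal peaks at least as long as the length on the x axis (bp, log scale), on a log y axis, for the KO and the WT list, with the 2000 bp limit dashed. At 2000 bp the KO line stands at 4514 peaks and the WT line at 3101, and at 10000 bp they stand at 17 and 2.

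The limit cut through a smooth distribution. In KO, 618 peaks were less than 100 bp above it and 759 at most 100 bp below it, with median pileups of 73 and 72 overlapping fragments. In WT the corresponding counts were 458 and 528, with median pileups of 46 and 45.

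Broad regions were also the more strongly enriched ones. Their median summit pileup was 83 fragments in KO (quartiles 66 and 102), or 18.8 floors, against 36 over all KO peaks. In WT it was 51 fragments (42 and 61), or 17.4 floors, against 25 over all WT peaks. The authors' fold enrichment, which relates the summit to its local background, had a median of 8.11 in KO broad peaks and 8.08 in WT broad peaks, against 5.36 and 5.49 over all peaks of the same lists. Within the broad class, longer regions were again the higher ones. In KO the median pileup was 78 fragments from 2000 to under 3000 bp, 94 from 3000 to under 5000 bp and 114 at 5000 bp or more. In WT it was 48, 57 and 67 in the same classes. Class medians were thus higher in the longer classes, while single peaks varied widely: the longest peak had a pileup of 129 in KO and 62 in WT, and the highest pileup of any broad peak was 517 in KO and 456 in WT. A longer peak has more positions from which its summit is taken, and the part of this in the trend was not tested.

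The local background was higher as well. Its median was 2.13 floors at KO broad peaks and 1.79 floors at WT broad peaks, against 1.27 and 1.14 over all peaks. Only 68 KO broad peaks (1.51%) and 34 WT broad peaks (1.10%) had a background above 5 floors, against 0.180% and 0.185% of all peaks. The summits of broad peaks lay anywhere along the region. The quartiles of the summit's position were 28.5% and 70.8% of the length in KO and 26.9% and 71.2% in WT, whereas over all peaks they were 40.9% and 57.8% in KO and 40.3% and 58.6% in WT.

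Broad regions were unevenly shared among chromosomes, in the same order at the top in both genotypes. Chromosome 19, which is rich in genes and CpGs, led with 620 broad peaks in KO (5.13% of its peaks, 4.74 to 5.54) and 421 in WT (3.77%, 3.42 to 4.14). Chromosome 16 followed with 468 in KO (3.51%) and 343 in WT (2.83%). Chromosome 21 came next by share, with 102 in KO (2.69%) and 84 in WT (2.51%), and then chromosome 17, with 436 in KO (2.48%) and 303 in WT (1.88%). Chromosomes 16, 17 and 19 together held 33.8% of KO broad peaks and 34.4% of WT broad peaks, but only 14.8% of all KO peaks and 15.3% of all WT peaks. At the low end, chromosome 3 had 102 broad peaks in KO (0.550%) and 66 in WT (0.417%). Chromosome 6 had 86 in KO (0.583%) and 40 in WT (0.326%).

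The broad share was higher in KO than in WT on 22 of 22 autosomes. The KO to WT ratio of broad counts was highest on chromosome 6, at 2.15 (1.46 to 3.21). It was 1.90 (1.33 to 2.74) on chromosome 15 and 1.79 (1.35 to 2.40) on chromosome 2. It was lowest on chromosome 21, at 1.21 (0.901 to 1.64), and 1.27 (0.869 to 1.86) on chromosome 18. The intervals of the 22 autosomes all overlap. Overlap alone does not decide whether 2 ratios differ, and the order of the ratios was not tested. On 13 of 22 autosomes the whole interval lay above the ratio of all peaks of that chromosome.

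**Figure D2:**
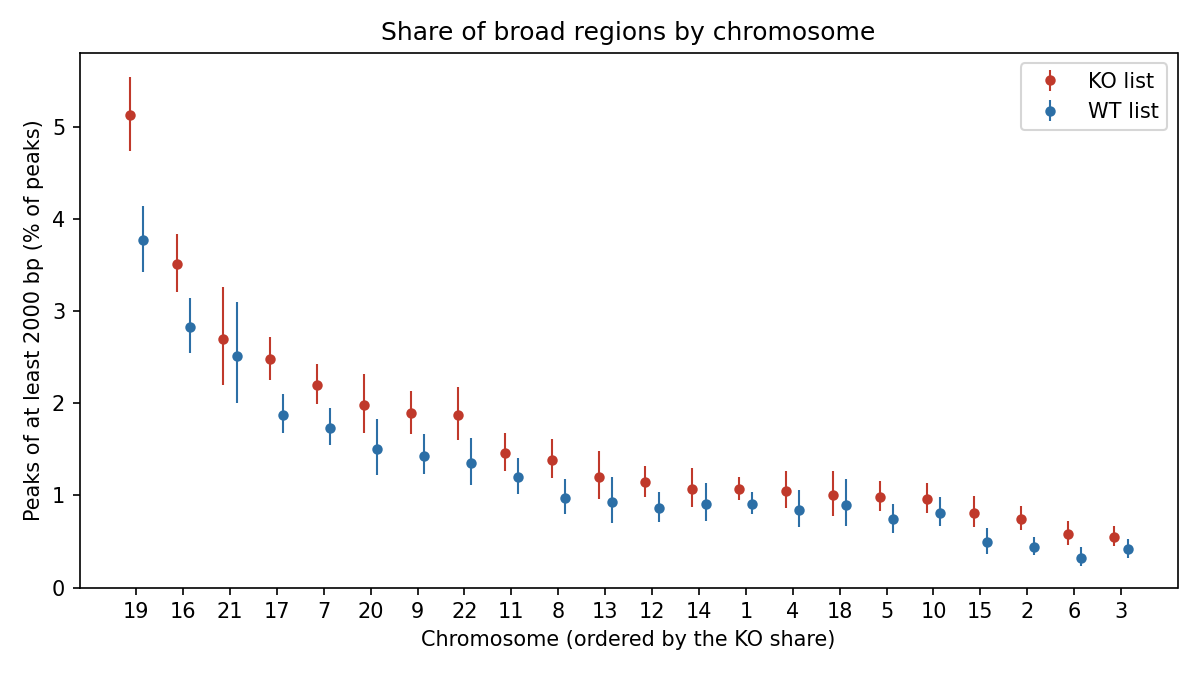
Share of autosomal peaks that were at least 2000 bp long (y axis, %) for each chromosome (x axis, ordered by the KO share), for KO and WT lists, with exact 95% binomial intervals that cover counting error. Chromosomes 19 and 16 stand highest in both lists, at 5.13% and 3.51% in KO and 3.77% and 2.83% in WT.

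Broad methylated regions gathered at chromosome ends. Of the KO broad peaks 54.3% (52.9 to 55.8) had their summit within 5 Mb of the outermost listed peak of a chromosome arm end, and of the WT broad peaks 61.1% (59.3 to 62.8). Of all peaks 15.2% in KO and 16.7% in WT lay there. The ends of human chromosomes are generally rich in genes and CpGs. The broad share of peaks was highest between 1 and 2 Mb from the end, at 7.59% in KO and 6.22% in WT. It was 4.17% in KO and 3.26% in WT at 2 to 5 Mb, and 0.584% in KO and 0.348% in WT at 20 to 50 Mb. Beyond 50 Mb it was higher again, at 0.740% (0.675 to 0.809) in KO and 0.530% (0.471 to 0.594) in WT. The preference went with length: 48.1% of KO peaks and 56.8% of WT peaks from 2000 to under 3000 bp lay within 5 Mb of an end, and 85.2% and 84.3% of those of 5000 bp or more. Without chromosomes 16, 17 and 19 the share of broad peaks near an end was 50.6% in KO and 57.3% in WT, against 13.9% and 15.1% of all peaks of the remaining chromosomes.

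The ends differed widely from each other. The start of chromosome 19 held 277 KO and 226 WT broad peaks within 5 Mb, among 1713 KO and 1798 WT peaks of any length. The start of chromosome 16 held 207 among 2010 in KO and 161 among 2062 in WT. The end of chromosome 17 held 197 among 2007 in KO and 162 among 2025 in WT. The start of chromosome 3 held 0 in both lists, among 225 KO and 165 WT peaks of any length. Of 44 ends, 39 had more broad peaks in KO, 2 had equal numbers and 3 had fewer in KO. The 3 were the end of chromosome 3, with 32 in KO and 35 in WT, the start of chromosome 21, with 5 and 6, and the start of chromosome 18, with 1 and 2. On chromosomes 13, 14, 15, 21 and 22 the first listed peak lay at 9437056 bp or beyond, so their starts are not telomeres.

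**Figure D3:**
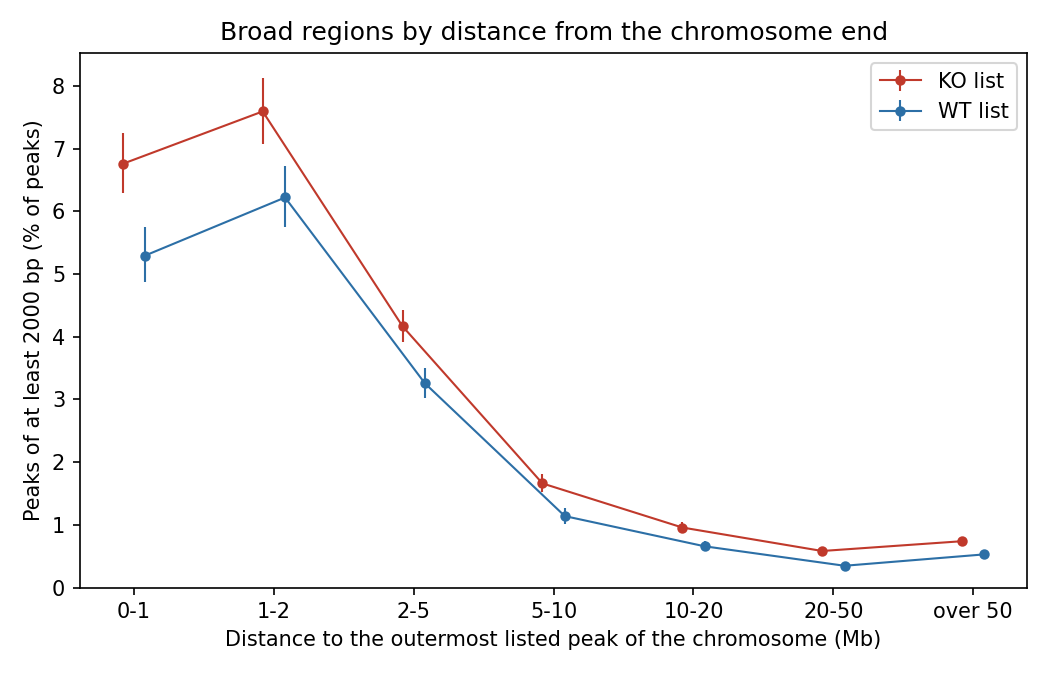
Share of peaks that were at least 2000 bp long (y axis, %) by distance in Mb from the outermost listed peak of the chromosome (x axis, unequal bins), for KO and WT lists, with exact 95% binomial intervals for counting error. The share is 7.59% in KO and 6.22% in WT at 1 to 2 Mb, 0.584% and 0.348% at 20 to 50 Mb, and 0.740% and 0.530% beyond 50 Mb.

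Spacing was strongly uneven. The median distance from a broad peak to the next was 23058 bp in KO (quartiles 4522 and 183228) and 25758 bp in WT (5014 and 201378), while the mean distance was 613750 bp in KO and 883993 bp in WT. Distances under 10000 bp made up 37.0% in KO and 34.8% in WT, against 84.7% and 83.3% between neighbouring peaks of any length. Peaks from 1000 to under 2000 bp, which numbered 25104 in KO and 19596 in WT, had a median distance of 14331 bp in KO and 15029 bp in WT and a mean of 109934 bp and 140861 bp. Of their distances 42.3% in KO and 41.2% in WT were under 10000 bp, also more than among broad peaks. Broad peaks also stood close to other peaks: the nearest peak of any length in the same list was 332 bp away at the median in KO and 308 bp in WT, against 968 and 1060 bp over all peaks. Another peak lay within 1000 bp of 82.9% of KO broad peaks and 86.0% of WT broad peaks, against 50.8% and 48.4% of all peaks.

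Joined across distances of up to 10 kb, broad peaks formed 2850 groups in KO and 2029 in WT. Groups of 2 or more held 53.0% of the broad peaks in KO and 50.4% in WT, and the largest had 19 in KO and 15 in WT. The largest KO group ran over 118382 bp on chromosome 9 at 139253821 to 139372202, where WT had 12 broad peaks. The largest WT group ran over 100222 bp on chromosome 1 at 1595877 to 1696098, where KO had 12. A group on chromosome 16 was among the 5 largest of both lists, at 2082497 to 2183444 with 17 broad peaks in KO and at 2099470 to 2175958 with 14 in WT. These counts are over spans of different length. Over its KO span WT had 15 broad peaks, and over its WT span KO had 13. Broad peaks covered 60.7% of its KO span in KO and 60.2% of its WT span in WT. A group on chromosome 1 was also among the 5 largest of both lists, at 1408583 to 1508140 with 16 in KO and at 1408645 to 1486282 with 13 in WT. Over its KO span WT had 15 broad peaks, and over its WT span KO had 12. Its spans were covered to 70.3% in KO and 61.9% in WT. These groups were named after their values were seen.

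By windows of 1 Mb, 877 of 2713 windows with a KO peak held a KO broad peak, and 649 of 2697 windows with a WT peak held a WT broad peak. As few as 77 windows held 50% of the KO broad peaks and 58 held 50% of the WT ones. The corresponding numbers for peaks of any length were not computed, so the part of general peak density in this was not tested. The fullest was chromosome 19 at 1 to 2 Mb in KO, with 74 broad among 352 KO peaks and 58 among 375 WT peaks. Chromosome 17 at 79 to 80 Mb had 64 among 421 in KO and 57 among 434 in WT. At 80 to 81 Mb it had 63 among 516 in KO and 49 among 517 in WT. Chromosome 19 at 2 to 3 Mb had 63 among 373 in KO and 51 among 377 in WT. In WT the fullest was chromosome 1 at 1 to 2 Mb, where the order of the counts was turned. KO had 57 broad peaks among 429 there, and WT 63 among 445. A count takes no account of length. The KO peak of 11457 bp at 1454104 to 1465560, for 1, overlapped 3 WT peaks of 5862, 2104 and 4602 bp, all broad. It lay in the group at 1408583 to 1508140, where KO had 16 broad peaks and WT 15. In the group at 1595877 to 1696098 WT had 15 and KO 12. Whether cut peaks account for the turned order was not tested. The length of broad DNA in this window was not compared.

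Nearly every broad region of one genotype was also methylated in the other, but often in pieces. Of the 4514 KO broad peaks, 2171 (48.1%, 46.6 to 49.6) overlapped 1 WT peak by at least 1 bp, 2336 (51.8%, 50.3 to 53.2) overlapped 2 or more, and 7 (0.155%, 0.0624 to 0.319) overlapped none. Those with 3 or more numbered 544 (12.1%), against 0.240% of all KO peaks, and the most pieces were 8. Of the 3101 WT broad peaks, 2168 (69.9%, 68.3 to 71.5) overlapped 1 KO peak, 931 (30.0%, 28.4 to 31.7) overlapped 2 or more, and 2 (0.0645%, 0.00781 to 0.233) overlapped none. Those with 3 or more numbered 130 (4.19%), against 0.0716% of all WT peaks, and the most pieces were 4. These shares moved with the setting. With both lists held to a −log10 q of at least 10, the shares with 2 or more and with no partner were 37.9% and 1.80% for KO broad peaks, and 26.2% had 2 or more for WT broad peaks. With any peak within 1000 bp counted as a partner, 88.8% of KO and 85.2% of WT broad peaks had 2 or more. Over all KO peaks 73.2% overlapped 1 WT peak, 3.15% overlapped 2 or more and 23.7% overlapped none. Over all WT peaks the shares were 86.0%, 2.06% and 12.0%. A long peak has more room for several partners, and the share with several grew with length in both lists. In KO it was 33.3% from 1500 to under 2000 bp, 46.6% from 2000 to under 3000 bp and 77.3% at 5000 bp or more, and in WT it was 20.7%, 27.8% and 44.6%. In each of these classes KO peaks were the more often in pieces in the other list. The shallower WT library moves with this difference, and its part was not tested.

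**Figure D4:**
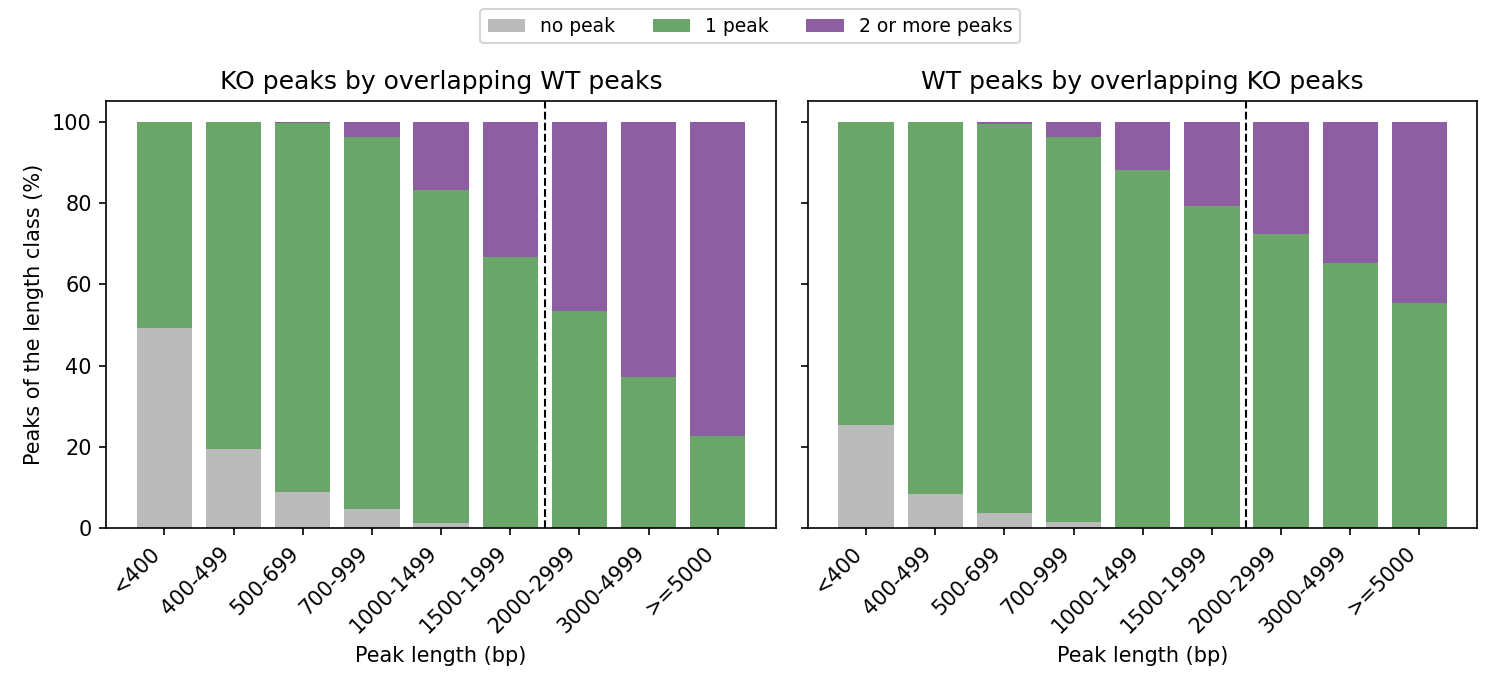
Share of peaks (y axis, %) that overlapped no peak, 1 peak or 2 or more peaks of the other list, by peak length (x axis, bp), for KO peaks against WT peaks (left) and WT peaks against KO peaks (right), with the 2000 bp limit dashed. At 5000 bp or more 77.3% of KO peaks and 44.6% of WT peaks overlapped 2 or more.

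The pieces were close together and covered most of the region. Where a KO broad peak overlapped several WT peaks, the median gap between neighbouring pieces was 187 bp (quartiles 122 and 294), and 90.5% of gaps were under 500 bp. WT peaks covered a median of 86.8% of such a region. Where a WT broad peak overlapped several KO peaks, the median gap was 154 bp (109 and 232), 97.2% of gaps were under 500 bp and KO peaks covered a median of 91.3%. Measured from the first piece to the last, 88.5% of the KO regions and 94.4% of the WT regions in pieces still reached 2000 bp in the other list. Over all broad peaks the covered share had a median of 91.0% in KO and 97.8% in WT. The summit of 95.4% of KO broad peaks lay inside a WT peak, and that of 99.9% of WT broad peaks inside a KO peak, against 74.7% and 87.1% over all peaks.

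Broad regions often had a broad partner in the other list, a share that by construction cannot exceed the share with any partner. Of the KO broad peaks 51.9% (50.4 to 53.4) overlapped a WT broad peak, and of the WT broad peaks 76.8% (75.3 to 78.3) overlapped a KO broad peak, against 1.40% of all KO peaks and 2.89% of all WT peaks. Where the only partner of a KO broad peak was 1 WT peak, that peak was broad itself in 77.1% of cases, with a median length of 2381 bp. Where the only partner of a WT broad peak was 1 KO peak, it was broad in 93.5%, with a median of 2783 bp. With 2 or more partners, the longest piece was broad in 28.6% for KO regions and in 38.1% for WT regions. The lists hold different numbers of broad peaks, which bounds these shares. With the KO limit raised to 2262 bp, so that both lists held 3101, the share of KO broad peaks that overlapped a WT broad peak was 61.0% and that of WT broad peaks that overlapped a KO broad peak was 62.9%.

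Joined wherever peaks of the 2 lists overlapped, the broad peaks formed 5172 regions. Of these 2169 (41.9%) were broad in KO only, 2287 (44.2%) in both lists and 716 (13.8%) in WT only. Of the regions broad in both, 1417 were 1 peak in each list. Of those broad in KO only, 1585 (73.1%) were 1 KO peak set against several WT peaks, and 494 (22.8%) were 1 peak in each list. Of those broad in WT only, 507 (70.8%) were several KO peaks set against 1 WT peak, and 139 (19.4%) were 1 peak in each list. In both genotypes most of the regions that were broad in that genotype alone were thus cut up in the other rather than shortened. Regions broad in both lists lay within 5 Mb of a chromosome end in 63.9% of cases (61.9 to 65.9), those broad in KO only in 43.5% (41.4 to 45.6) and those broad in WT only in 48.3% (44.6 to 52.1). The regions broad in both were also longer, with a median span of 3062 bp, against 2380 bp for KO only and 2381 bp for WT only, and the part of length in this difference was not tested.

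The longest regions show these forms. The longest KO peak, on chromosome 19 at 1910660 to 1927781 (hg19), was 17122 bp long with a summit pileup of 129 fragments (29.2 floors). In WT the same stretch held 3 peaks of 1559, 3362 and 11264 bp, with pileups of 52, 56 and 62 fragments (17.8, 19.2 and 21.2 floors), and the last of these was the longest peak of the WT list. The second longest KO peak, on chromosome 8 at 144990190 to 145005330, was 15141 bp long with a pileup of 175 (39.6 floors). WT held 3 peaks there, of 6917, 1506 and 3422 bp, with pileups of 102, 80 and 77, and they covered 78.2% of it. The third, on chromosome 16 at 2661873 to 2676400, was 14528 bp long with a pileup of 139 (31.4 floors). WT had 5 peaks there that alternated in size, of 3299, 451, 5151, 309 and 4638 bp, and covered 95.3%. Its 2 short pieces had pileups of only 21 and 22 fragments, against 68, 81 and 70 at the 3 long ones.

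The KO peak on chromosome 7 at 56881910 to 56896214 was 14305 bp long and overlapped 4 WT peaks. Its pileup of 211 fragments stood on a background of 10.7 floors, the highest among the 10 longest KO peaks, and its fold was only 4.39. The KO peak on chromosome 19 at 873411 to 887681 had the highest fold of the 10, 12.4, with a length of 14271 bp and 6 WT peaks. The other 5 of the 10 were 10485 to 11666 bp long and lay on chromosomes 12, 1 (3 of them) and 16. Of the 10, 9 were in 3 to 6 pieces in WT.

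The exception was on chromosome 16 at 581515 to 592621, where the region was 1 peak in both lists. It was 11107 bp long in KO, with a pileup of 140 (31.6 floors) and a fold of 9.94. In WT it was 11134 bp long, with a pileup of 81 (27.7 floors) and a fold of 8.95. Its end, at 592621, was the same base in both lists, and its start lay at 581515 in KO and 581488 in WT.

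The longest WT peaks were more often whole in the other genotype. Of the 10 longest, 5 overlapped 1 KO peak and 5 overlapped 2. On chromosome 5 the KO peak was 10044 bp long with a pileup of 119 (26.9 floors), and the WT peak at 1051316 to 1061187 was 9872 bp long with a pileup of 71 (24.3 floors). On chromosome 1 the KO peak was 8608 bp long with a pileup of 110 (24.9 floors), and the WT peak at 1415723 to 1424279 was 8557 bp long with a pileup of 72 (24.6 floors). The region on chromosome 14 was 10322 bp long in KO and 8725 bp long in WT, at 105694259 to 105702983, and its background was high in both, at 8.73 floors in KO and 7.23 in WT. These 3, with the longest KO peak and the region on chromosome 16 that was whole in both lists, were the 5 longest regions broad in both, ranked by the shorter of the 2 lengths. WT had further peaks of 570 and 813 bp under the KO peak on chromosome 14.

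Other WT peaks were in pieces in KO. On chromosome 9, KO had peaks of 5770 and 2277 bp, with pileups of 120 and 93 fragments, where WT had 1 peak of 8321 bp at 139407524 to 139415844 with a pileup of 69. On chromosome 19, KO had peaks of 7913 and 6305 bp where WT had 1 of 9857 bp at 2215142 to 2224998. The KO peaks, at 2213608 to 2221520 and 2221602 to 2227906, covered 99.2% of it and reached beyond it on both sides. On chromosome 10, KO had peaks of 7048 and 4971 bp, with pileups of 59 and 49 (13.3 and 11.1 floors), where WT had 1 of 9428 bp at 18850204 to 18859631 with a pileup of 43 (14.7 floors). The KO peaks, at 18850491 to 18857538 and 18857617 to 18862587, covered 96.1% of it and ended beyond it. At 18.8 Mb from the chromosome end, this WT peak was 1 of 2 among the 10 longest that did not lie within 5 Mb of one, the other being on chromosome 7 at 63217481 to 63225560.

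**Figure D5:**
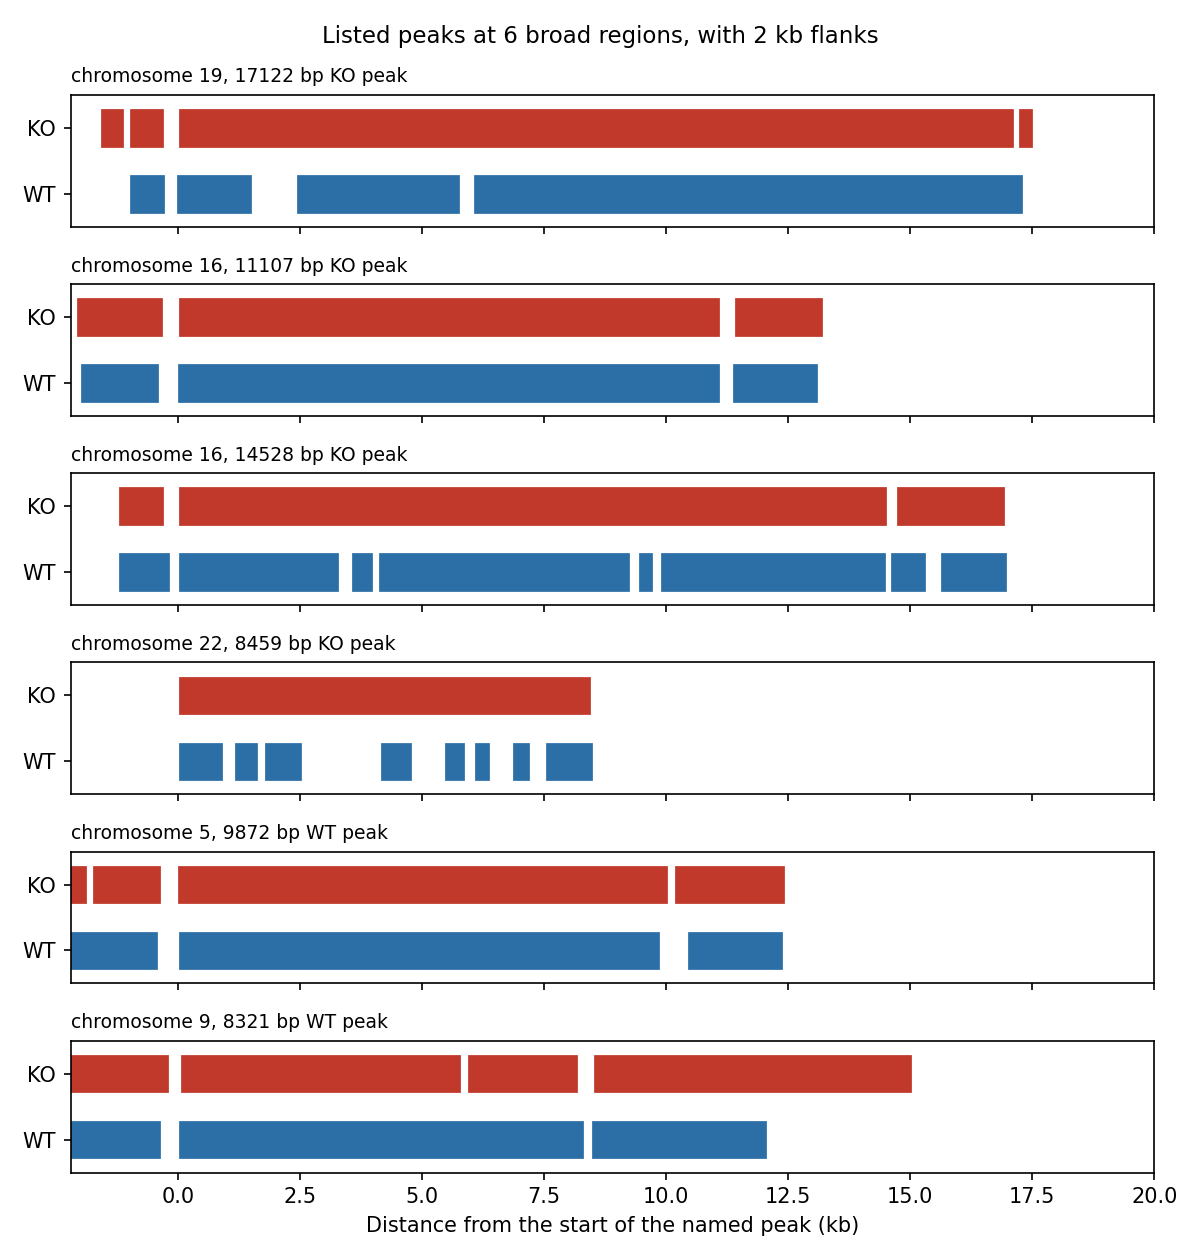
Listed peaks of the KO and the WT list at 6 broad regions, to scale, by distance in kb from the start of the named peak (x axis), with 2 kb on each side; a gap between bars is a stretch with no peak in that list. The chromosome 16 peak of 11107 bp is whole in both lists, the chromosome 22 peak of 8459 bp is 8 pieces in WT, and the chromosome 9 peak of 8321 bp in WT is 2 pieces in KO.

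The most finely divided region lay on chromosome 22 at 20708526 to 20716984. KO had 1 peak of 8459 bp with a pileup of 192 fragments (43.4 floors) and a fold of 7.30. WT had 8 peaks there, of 341 to 979 bp, with pileups of 34 to 75 fragments (11.6 to 25.7 floors), and they covered 58.3% of it. The background at the KO summit was 5.75 floors, and those of the WT pieces ran from 2.10 to 4.57 floors. The nearest other KO peak was 12991 bp away, far beyond the median of 332 bp for KO broad peaks. The other 4 named for their pieces overlapped 5 or 6 WT peaks and lay on chromosomes 19 (2 of them), 2 and 16. No WT broad peak overlapped more than 4 KO peaks, and 9 overlapped that many. The longest of the 9 was on chromosome 7 at 4801465 to 4808537, where KO had peaks of 3226, 1214, 2006 and 1063 bp and WT 1 of 7073 bp.

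The 7 KO broad peaks without a WT peak were 2016 to 3134 bp long, with 3 of them above the KO broad median of 2501 bp. The longest was on chromosome 10 at 101597566 to 101600699, 3134 bp long, with a pileup of 45 (32.8 to 60.2) and a background of 1.02 floors. The nearest WT peak was 6380 bp away. The one with the highest −log10 q, 46.2, was on chromosome 9 at 123256884 to 123259469, 2586 bp long with a pileup of 80 (63.4 to 99.6), and a WT peak of 343 bp lay 852 bp away. The others were 2 on chromosome 3 (starting at 48252227 and 67493509) and 1 each on chromosomes 5 (563397), 10 (94134689) and 20 (32816787). Across the 7, pileups ran from 42 to 85 fragments and backgrounds from 1.02 to 4.47 floors. None of the 7 lay within 1 Mb of the longest peak-free stretch of its chromosome, counted over both lists.

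Both WT broad peaks without a KO peak lay beside that stretch of chromosome 2. They were at 92289709 to 92291739, with a pileup of 264 and a background of 28.4 floors, and at 92323442 to 92325804, with a pileup of 346 and a background of 60.3 floors. Their summits lay 0.0345 and 0.000717 Mb from the edge of that stretch. The edge, at 92325804, is the end of the second peak itself, since the stretch was counted from the same lists. The place of that peak beside it was thus fixed by construction. The folds of the 2 peaks, 3.15 and 1.96, were low beside the WT broad median of 8.08.

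In 2050 pairs a broad peak of either list and 1 peak of the other list overlapped each other and nothing else. In the 1417 that were broad in both, the start differed by a median of 47 bp and the end by 46 bp, on lengths of 2545 bp in KO and 2496 bp in WT at the median. Over all 202907 pairs of autosomal peaks both differed by a median of 42 bp. In the 494 pairs broad in KO only, the start differed by a median of 112 bp and the end by 125 bp, with median lengths of 2121 bp in KO and 1717 bp in WT. In the 139 pairs broad in WT only, the start differed by a median of 90 bp and the end by 75 bp, with median lengths of 1907 bp in KO and 2082 bp in WT. A limit that only 1 peak of the pair reached fixes the direction of these length differences. Summits shifted by a median of 117 bp (quartiles 34 and 668) in pairs broad in both, against 40 bp (17 and 84) over all pairs. As a share of the KO length the order was the other way at the median, 4.42% (1.29 and 24.9) against 7.56% (3.05 and 16.2). The KO peak was the longer in 892 of the 1417 (62.9%), and in 61.5% of all pairs.

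The floor-scaled log2 ratio of summit pileup, KO over WT, had a median of 0.12 (0.11 to 0.13) over the 2050 pairs, with an SD of 0.26 between pairs. The interval is over peaks of 1 library per genotype and says nothing of replicates. Selection by length entered this median. It was 0.11 in the 1417 pairs broad in both, 0.17 in the 494 broad in KO only and 0.08 in the 139 broad in WT only. Over all pairs the median was 0.04, and scaling by the floors removes any change common to the genome. The background moved the same way: its floor-scaled log2 ratio had a median of 0.22 in the pairs broad in both and 0.04 over all pairs. The part of background or of sequencing depth in the higher KO pileup was not tested. Differences of over 2-fold were rare. In pairs broad in KO, 15 of 1911 (0.785%) were over 2-fold higher in KO and 0 were over 2-fold lower, against 0.447% and 0.138% over all pairs. In pairs broad in WT, 4 of 1556 (0.257%) were over 2-fold higher in KO and 0 were over 2-fold lower. Selection by length enters these shares too. Over 2-fold higher in KO were 12 of the 494 pairs broad in KO only (2.43%). Among the 1417 pairs broad in both it was 3 (0.212%), below the share of all pairs.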

How the data were processed

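MeDIP-seq was done on 1 immunoprecipitated and 1 input library per genotype. The submitters' processing notes name FastQC, BWA, MACS2 and the build hg19, and the deposited lists have the columns of MACS2 peak tables. Versions, settings and the treatment of duplicates are not given in the sources used here. In each library's list the authors deposited, for every peak, its position, length, the pileup signal at its summit (unscaled whole fragments), the caller's −log10 p and −log10 q, and the authors' fold enrichment, a ratio of pileup to local background, read here as having 1 added to each. Each list was tied to its sample by its genotype and antibody name. Library depth was not listed.

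Here autosomal peaks of at least 2000 bp were selected. The local background was recomputed from pileup and fold. Peaks sharing at least 1 bp were called overlapping, and a KO and a WT peak that each overlapped no other peak of the opposite list made a pair. Counts have exact Poisson intervals, shares and ratios of counts exact Clopper-Pearson intervals, and medians of pairs order-statistic intervals. The matching was tested on simulated data with known overlaps. Python 3.11.15, pandas 2.3.3 and SciPy 1.17.1 were used. Regions were named by rule: the 10 longest per list, the 5 longest without a counterpart, the 5 in the most pieces, the 5 longest broad in both, the 5 fullest windows of 1 Mb, and the chromosomes with extreme shares. The members, lists and rules were chosen with earlier results of these data known. Genes and sequences at these positions were not analysed here, since the reference tables were of another build.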

Additional observations from a re-analysis of the deposited data

Results flagged for a closer look

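Chromosomes X and Y lay outside the autosomal rule and were looked at separately. Counts above 3, the limit that a count of 0 allows, put chromosome X in both lists and chromosome Y in the WT list here. On chromosome X there were 51 broad peaks in KO (0.869% of its peaks) and 25 in WT (0.540%). Of the 51, 22 overlapped 1 WT peak and 29 overlapped 2 or more, and of the 25 in WT 15 overlapped 1 KO peak and 10 overlapped 2 or more. On chromosome Y there were 6 broad peaks among 169 in WT (3.55%). KO had 3 among 207 (1.45%), which is not above the limit and is given for comparison. No difference between genotypes was tested.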

How the results depend on the processing

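Of 111 alternatives over 15 results, 62 stayed within their bounds and 49 left them, counts being held to 1.5 times and other values to their 95% intervals. The 62 include outcomes fixed in advance, since shortening the KO list cannot change the number or the spacing of WT broad peaks. Counts, shares and distances are positive and could not change sign; the log2 ratio of pileup kept its sign in all 4 of its alternatives. The alternatives for pileup and chromosome ends, and the raised KO limit, were chosen after seeing the data. The cause was not tested unless the construction shows it. By construction, limits of 1500 and 3000 bp gave 10372 and 1251 broad peaks in KO and 7403 and 824 in WT. At 1500 bp, the KO shares with 1 partner, with 2 or more and with a broad partner were 58.4%, 41.3% and 54.8%, the WT shares with 1 and with 2 or more were 75.2% and 24.6%, the median distances were 17144 bp in KO and 17344 bp in WT, and 42.4% of KO and 49.5% of WT broad peaks lay near an end. At 3000 bp, the KO shares were 34.7%, 65.2% and 48.2%, the WT shares were 63.7%, 36.3% and 74.6% with 0% lacking a partner, the distances were 45707 bp and 68449 bp, and 70.7% and 72.9% lay near an end. With both lists held to a −log10 q of at least 10, the KO shares with 1, 2 or more and no partner were 60.4%, 37.9% and 1.80%, and the WT shares with 1 and with 2 or more were 73.6% and 26.2%. With the KO list shortened to the number of WT peaks, the WT shares were 71.8% and 28.1%. Counting any peak within 1000 bp as a partner gave 11.1% with 1 and 88.8% with 2 or more in KO, and 14.7% and 85.2% in WT. With the raised KO limit, the KO shares with 1, 2 or more and a broad partner were 43.9%, 55.9% and 61.0%, the KO median distance was 29533 bp and the WT share with a broad partner was 62.9%. Without backgrounds above 5 floors, or without chromosomes 2 and 3, 0% of WT broad peaks lacked a partner, since both such peaks were removed. Without chromosomes 2 and 3 the KO distance was 21065 bp. Without chromosomes 16, 17 and 19, 50.6% of KO and 57.3% of WT broad peaks lay near an end. With windows of 2 and 10 Mb these shares were 32.3% and 65.6% in KO and 37.1% and 71.3% in WT, against 7.01% and 25.8% of all KO peaks and 7.79% and 27.5% of all WT peaks. The ratio of broad counts, KO over WT, was between 1.40 and 1.52 under the alternatives that could change which peaks were counted as broad. The exception was the raised KO limit, which makes it 1. Settings that changed only how peaks were matched between lists cannot move this ratio and do not test it. Shortening the KO list left 4513 of 4514 KO broad peaks, so it hardly tested the ratio either. No paired analysis was possible because there was a single 5-methylcytosine library per genotype. Depth limits where an unbroken peak can be called, and the lists could not be matched in depth for length.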
